A study of Mus musculus with 8 samples.

Results

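The genes described here are the platelet-derived growth factor (PDGF) ligands Pdgfa, Pdgfb, Pdgfc and Pdgfd, the receptors Pdgfra and Pdgfrb, the receptor-like gene Pdgfrl, and the pericyte genes Cspg4 and Rgs5. They were taken by symbol, through their Ensembl identifiers, and all 9 were found among the 55421 gene identifiers of the deposited table. The table comes from RNA sequencing of mouse bone marrow derived macrophages (BMDMs), primary cells grown from marrow in culture, at day 7 of differentiation. WT cultures gave 4 libraries and Baf60a KO cultures gave 4. The series title places the cells in C57 mice, and Baf60a is the protein encoded by Smarcd1, a subunit of SWI/SNF chromatin remodelling complexes. How the deletion was made, whether a Cre driver was used and how old the mice were is not given in the labels used, and separate mice or cultures are not stated for the replicates. The p-values therefore measure the spread between these libraries, which may be technical.

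PDGFs are secreted growth factors that act as paired chains. The A, B and C chains bind PDGF receptor alpha, whereas the B and D chains bind receptor beta, and both receptors are tyrosine kinases of mesenchymal cells that drive migration and division. PDGF-B released by endothelium recruits receptor beta-positive pericytes to vessels, and macrophages and platelets are other known sources of PDGF in wounds and in fibrosis.

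Values are TPM, length-corrected transcript abundances scaled to the same total in each library, which can be compared between genes but do not show how deeply a library was sequenced. Fold changes take WT away from Baf60a KO after conversion to log2(TPM + 1), where differences of weakly expressed genes come out too small, and a gene was called at an adjusted p under 0.05 by limma over 13933 tested genes. In this comparison 782 genes were called, which is 5.61% of those tested, with 613 higher (4.4%) and 169 lower (1.21%) in KO. With median-of-ratios scaling 516 were higher and 404 lower, with quantile normalization 440 and 254, with TPM over protein-coding genes 842 and 484, and without WT replicates 3 and 4 201 and 171. Those WT libraries stood apart in the share of TPM from processed pseudogenes, at 12.4% and 12.6% against 7.05% to 8.72% in the other 6. Smarcd1 was lower in every KO library, at 14.8 ± 0.998 TPM in WT and 10.5 ± 0.447 in KO (SD, n = 4 each; log2 fold change -0.47, adjusted p = 0.00756), so the labelled knockout cultures still held its transcripts. Markers of cells other than macrophages were abundant in both groups. Among them were the collagen gene Col1a2, at 1554 ± 96.3 TPM (WT) and 1785 ± 55.3 TPM (KO), and Acta2, smooth muscle actin, at 1241 ± 61.1 TPM (WT) and 1699.6 ± 38.5 TPM (KO). In such mixed bulk cultures, a change in the number of cells of a type and a change in RNA per cell cannot be told apart.

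Of the 7 genes that could be tested, Pdgfb, Pdgfrb and Pdgfd rose in Baf60a KO, 0 fell and 4 did not pass. These 3 of 7 stand beside the 4.4% of all tested genes called higher. The genes were chosen with earlier results of these data known, so this comparison describes them and tests nothing. For the same 3 genes the KO range lay wholly above the WT range, where 11.9% of all genes tested did so and 15.8% were apart in either direction. All 7 log2 fold changes were above 0, as were 57.5% of those of all genes tested, and their median was 0.33 against 0.03. All 7 were above the filter (TPM over 1 in at least 4 libraries) in all 8 libraries, so none passed it through a single group. Cspg4 and Rgs5 were under 1 TPM in every library and were not tested in this fit.

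**Figure D1:**
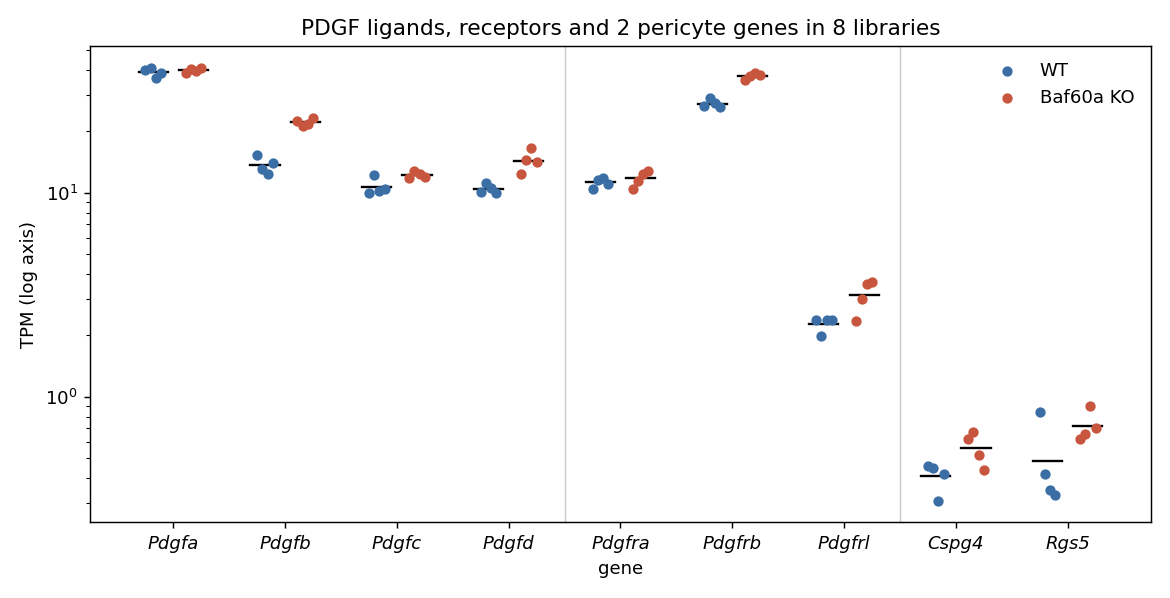
TPM (log axis) of the 9 genes in each library, with 4 WT and 4 Baf60a KO points per gene and a line at each group mean. The KO points of Pdgfb (21.24 to 23.40), Pdgfd (12.35 to 16.66) and Pdgfrb (35.57 to 38.60) lie above all WT points of the same gene, and the groups overlap for the other 6 genes.

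In WT, Pdgfa was the most abundant of the ligands and receptors at 39.0 ± 1.85 TPM (SD, n = 4), followed by Pdgfrb at 27.4 ± 1.34 and Pdgfb at 13.7 ± 1.27. Pdgfra at 11.2 ± 0.618, Pdgfc at 10.7 ± 1.02 and Pdgfd at 10.5 ± 0.550 came next, and their ranges overlapped. Pdgfrl followed at 2.28 ± 0.20, and Rgs5 at 0.485 ± 0.240 and Cspg4 at 0.410 ± 0.0688 overlapped in range. In KO the order of the first 3 was the same, but the lowest Pdgfa value (38.47 TPM) lay under the highest Pdgfrb value (38.60 TPM). Pdgfd moved ahead of Pdgfc and Pdgfra in mean level, with ranges that still overlapped those of both.

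Among the ligands, Pdgfb showed the greatest difference. Pdgfb, which encodes the B chain that binds both receptors, lies on chromosome 15 (79995874 to 80014977, build mm10). WT replicates 1 to 4 gave 15.27, 13.07, 12.33 and 13.97 TPM of Pdgfb, and KO replicates 1 to 4 gave 22.53, 21.24, 21.72 and 23.40. Every KO library was above every WT library, and the spread within each group was small beside the gap. The log2 fold change reached 0.67 (SE 0.069, limma adjusted p = 0.00263), with KO at 1.63 times the WT mean, and 0.603% of tested genes had a larger log2 fold change. Smarcd1 lies 19.7 Mb away on the same chromosome. The nearest tested genes to Pdgfb, chosen by position after its values were seen, were Cbx7, Apobec3, Rpl3 and Syngr1, and 0 of these 4 were called (log2 fold changes from -0.17 to 0.04, adjusted p from 0.413 to 0.846).

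Pdgfd encodes the D chain, a ligand of receptor beta that must be cleaved before it is active, and lies on chromosome 9 (6168584 to 6378850). Pdgfd stood at 10.13, 11.19, 10.54 and 9.95 TPM in the WT libraries, and at 12.35, 14.46, 16.66 and 14.12 in KO. All KO libraries exceeded all WT libraries, and KO replicate 3 was the highest and KO replicate 1 the lowest of their group. Pdgfd thus had a log2 fold change of 0.42 (SE 0.085, limma adjusted p = 0.0312). This call did not hold without any 1 of 6 of the 8 libraries (adjusted p from 0.0513 without WT replicate 3 to 0.0878 without KO replicate 4, with 0.0533, 0.0823, 0.0834 and 0.0646 without WT replicates 1 and 4 and KO replicates 2 and 3), nor without WT replicates 3 and 4 (0.0902) or without a filter on low values (0.0665).

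The other ligands did not pass. Pdgfa (chromosome 5, 138976014 to 138997370), which encodes the A chain, stood at 39.85, 40.94, 36.60 and 38.73 TPM in WT and 38.47, 40.30, 39.59 and 41.11 in KO. The groups overlapped almost fully, the log2 fold change was 0.03, and its 95% confidence interval ran from -0.08 to 0.14 (limma adjusted p = 0.771). An antisense gene, 6330403L08Rik, overlaps Pdgfa and averaged 2.61 TPM for WT (2.15 to 2.97) and 3.465 for KO (3.05 to 3.79), without passing (limma adjusted p = 0.103). Antisense genes also overlap Pdgfb (Gm41361, up to 0.28 TPM), Pdgfra (Gm42802, up to 1.48) and Pdgfc (Gm16000, up to 0.37). No label says that the libraries keep strand, so reads of these pairs cannot be told apart where they overlap. Pdgfc (chromosome 3, 81036416 to 81214040), whose C chain is a cleaved ligand of receptor alpha, stood at 9.99, 12.21, 10.17 and 10.45 TPM in WT and 11.85, 12.81, 12.40 and 12.02 in KO. WT replicate 2 reached into the KO range and the other WT libraries lay under it, with a log2 fold change of 0.18 (95% interval from 0.03 to 0.34, not adjusted; adjusted p = 0.157).

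The base sequences around the annotated starts of 3 ligand genes are shown for Pdgfd, 1 of the 2 ligands that rose, beside Pdgfc and Pdgfa, which did not pass. Each is a RefSeq window (build GRCm38.p6, the assembly of mm10) from 250 bases before to 50 bases after a start, and 6 of the 9 genes had a window that could be used. Pdgfb, the other ligand that rose, had none. Pdgfa has another window at a nearby start, not shown. Capitals mark matches, on either strand, to any of 6 promoter motifs named after the sequences.
Pdgfd (chr9:6168236-6168535, plus strand): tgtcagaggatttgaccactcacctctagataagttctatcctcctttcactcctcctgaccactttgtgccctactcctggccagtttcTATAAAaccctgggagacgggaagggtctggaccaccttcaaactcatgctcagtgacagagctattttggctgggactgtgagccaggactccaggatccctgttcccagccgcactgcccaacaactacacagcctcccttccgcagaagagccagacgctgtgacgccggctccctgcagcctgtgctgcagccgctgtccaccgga
Pdgfc (chr3:81036166-81036465, plus strand): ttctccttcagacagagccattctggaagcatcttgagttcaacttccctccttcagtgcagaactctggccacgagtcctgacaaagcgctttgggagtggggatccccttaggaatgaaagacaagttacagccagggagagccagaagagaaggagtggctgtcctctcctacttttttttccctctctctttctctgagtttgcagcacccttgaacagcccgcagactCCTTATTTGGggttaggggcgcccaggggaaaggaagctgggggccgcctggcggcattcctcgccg
Pdgfa (chr5:138994895-138995194, minus strand): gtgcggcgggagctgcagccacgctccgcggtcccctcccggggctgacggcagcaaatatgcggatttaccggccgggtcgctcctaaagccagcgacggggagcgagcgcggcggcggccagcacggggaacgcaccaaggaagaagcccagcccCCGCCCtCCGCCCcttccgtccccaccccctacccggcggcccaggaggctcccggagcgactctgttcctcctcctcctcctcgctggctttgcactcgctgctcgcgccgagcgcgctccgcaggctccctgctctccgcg
The Pdgfd window held 1 match to the TATA box motif (TATAAA), found in 13.6% of 32851 windows of the same length, and none of the other motifs. This match lies in the first part of the window, well before the annotated start, and its use as a promoter element was not tested. The Pdgfc window held 1 CArG box, the binding motif of serum response factor, found in 1.63% of windows. The Pdgfa window shown held 2 GC boxes (GGGCGG) and its other window held 1, where 35.7% of windows have at least 1. Of the other motifs, the CCAAT box was found in 37.4% of all windows. The AP-1 site, searched as TGANTCA, was found in 7.81%. The cyclic AMP response element, searched as TGACGTCA, was found in 1.79%. A CArG box can contain TATAAA, but no matches overlapped in these windows. The Pdgfra window held none of the 6 motifs, that of Cspg4 held 2 GC boxes and that of Rgs5 held 1 CCAAT box.

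Of the receptor genes, Pdgfrb rose and Pdgfra did not pass. Pdgfrb (chromosome 18, 61045150 to 61085061), the receptor of pericytes, smooth muscle cells and fibroblasts, stood at 26.57, 29.21, 27.55 and 26.22 TPM in the WT libraries and at 35.57, 37.35, 38.60 and 37.63 in KO. All KO libraries lay above all WT libraries. Its mean was 1.36 times higher in KO, a log2 fold change of 0.43 (SE 0.049, limma adjusted p = 0.00402). Csf1r, the receptor of the macrophage growth factor CSF-1, is the nearest tested gene, 15537 bases from Pdgfrb. Csf1r averaged 100.03 ± 8.27 TPM in WT and 117 ± 3.40 in KO, without passing (log2 fold change 0.22, adjusted p = 0.0651), although it did without WT replicate 1 (0.0253), with library weights (0.0483) and with TPM over protein-coding genes (0.0274).

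Pdgfra (chromosome 5, 75152292 to 75198215), the receptor for A, B and C chains, was at 10.45, 11.54, 11.88 and 11.09 TPM in WT and 10.46, 11.41, 12.36 and 12.82 in KO. The groups overlapped, with a log2 fold change of 0.06 and a 95% interval from -0.11 to 0.22 (limma adjusted p = 0.713). Pdgfrl (chromosome 8, 40926212 to 40990785) encodes a protein related to the extracellular part of the receptors that lacks a kinase. It was at 2.38, 1.98, 2.39 and 2.37 TPM in WT and 2.35, 3.03, 3.59 and 3.66 in KO. KO replicate 1 lay within the WT range and the other KO libraries above it. The log2 fold change was 0.33 (95% interval from 0.06 to 0.60, not adjusted; adjusted p = 0.139).

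**Figure D2:**
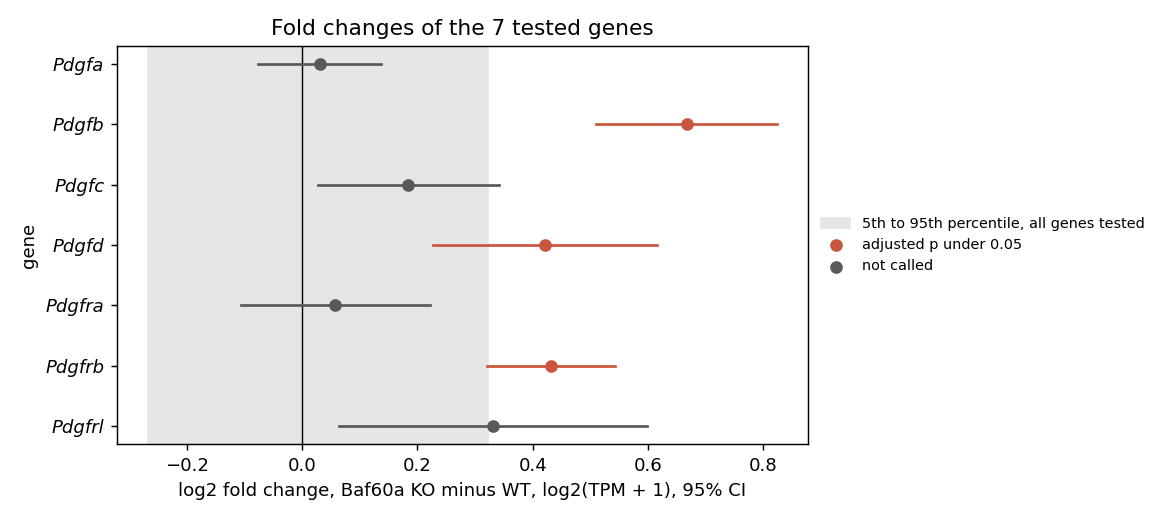
Log2 fold change (Baf60a KO minus WT, log2(TPM + 1)) of the 7 tested genes, with unadjusted 95% confidence intervals as lines. Pdgfb (0.67), Pdgfrb (0.43) and Pdgfd (0.42) were called, and the grey band holds the 5th to 95th percentile of all genes tested (-0.27 to 0.32).

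The pericyte genes were near the bottom of the scale in both groups. Cspg4 (chromosome 9, 56865033 to 56899870), the NG2 proteoglycan of pericytes, was at 0.46, 0.45, 0.31 and 0.42 TPM in WT and 0.62, 0.67, 0.52 and 0.44 in KO. Rgs5 (chromosome 1, 169655501 to 169695813), a regulator of G protein signalling in mural cells, was at 0.84, 0.42, 0.35 and 0.33 TPM in WT and 0.62, 0.66, 0.90 and 0.70 in KO. For both genes the groups overlapped, and WT replicate 1 was the highest WT library. Differences of log2(TPM + 1) were 0.15 for Cspg4 (exact two-sided permutation p = 0.0857) and 0.22 for Rgs5 (exact permutation p = 0.114), both 0.114 after adjustment over these 2 tests, where 4 against 4 libraries allow no p under 0.0286.

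Because TPM moves with the scale of a library, ratios within a library were also compared. The ratio of Pdgfb to Pdgfa was 0.35 ± 0.0279 in WT and 0.558 ± 0.0254 in KO (SD, n = 4 each), and that of Pdgfrb to Pdgfra was 2.44 ± 0.114 and 3.18 ± 0.20. The groups did not overlap for either ratio. Pdgfb supplied 18.5% ± 1.51 of the summed ligand TPM in WT and 25.1% ± 1.27 in KO, while the share of Pdgfa was 52.8% ± 0.199 and 44.9% ± 0.749. The summed TPM of the 4 ligands ranged from 69.64 to 77.41 in WT and from 85.2 to 90.65 in KO. No test was made on these ratios, shares and sums, since the genes were chosen with results known.

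**Figure D3:**
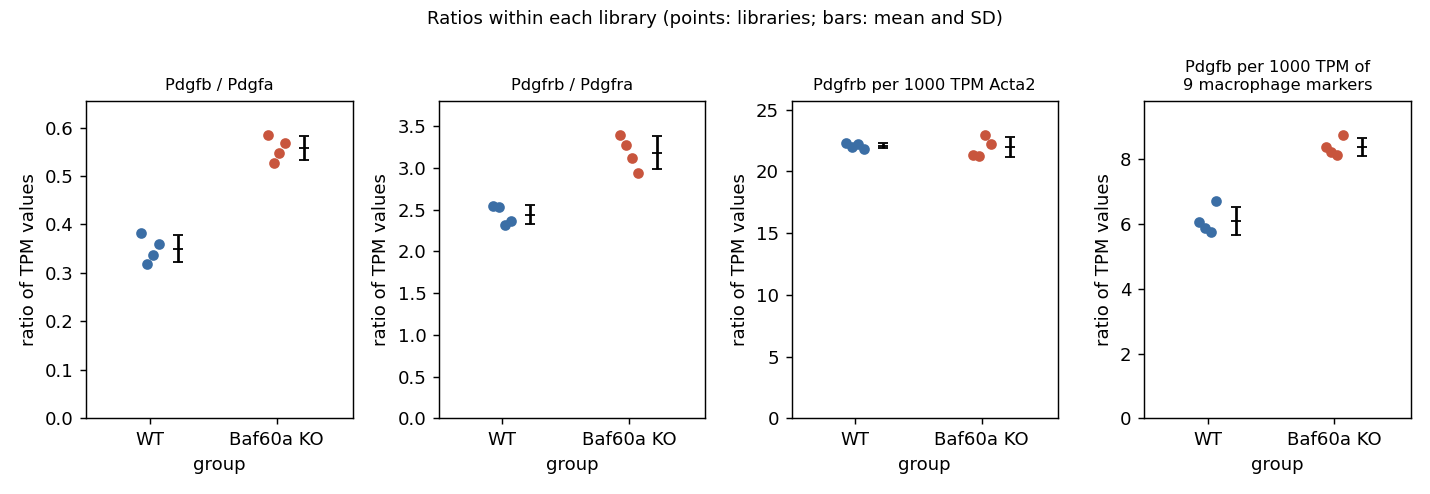
Ratios of TPM within each library for 4 WT and 4 Baf60a KO libraries (points) with group mean and SD (bars). Pdgfb over Pdgfa and Pdgfrb over Pdgfra separate the groups, Pdgfrb per 1000 TPM of Acta2 overlaps (22.1 ± 0.225 in WT and 21.9 ± 0.817 in KO), and Pdgfb per 1000 TPM of the macrophage markers without Lyz2 separates them (6.10 ± 0.431 and 8.38 ± 0.275).

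Cell type markers moved in the same libraries, where 4.4% of all tested genes were called higher and 1.21% lower. The lists here and below were also chosen with earlier results known, so their counts are descriptions. Of 12 tested pericyte and mural cell markers (17 listed), 4 rose, 0 fell and 8 did not pass, with a median log2 fold change of 0.25. Those that rose were Acta2 (0.45), the adhesion molecule Mcam (0.61), the receptor Notch3 (0.42) and the transcription factor Tbx18 (0.37). Des, the muscle intermediate filament desmin, named here after its values were seen, lay the other way with groups apart (2.79 to 3.71 TPM in WT, 2.05 to 2.77 in KO; log2 fold change -0.39, limma adjusted p = 0.0627), and 1 gene of the list was called lower with library weights, with median-of-ratios scaling and with TPM over protein-coding genes. The count of 4 fell to 2 without WT replicate 4 or without any 1 of the 4 KO libraries. With the replicate number as a block it fell to 1. The summed TPM of this list was 2354 to 2565 in WT and 2992 to 3165 in KO, nearly all from Acta2, Tagln and Anpep, and 0 of the 17 were at 0 in all libraries. Among listed genes that did not pass, Ndufa4l2 ranged from 20.84 to 24.23 TPM in WT and from 22.73 to 25.09 in KO. Foxs1 ranged from 9.67 to 11.21 and from 11.04 to 13.31, and Cox4i2 from 8.22 to 11.03 and from 7.09 to 10.96. Kcnj8 (0.94 to 1.7 and 1.43 to 2.46) and Rgs4 (1.18 to 1.95 and 1.87 to 3.46) were less abundant than these genes, with higher means in KO than in WT. The listed genes Abcc9, Vtn, Higd1b, Myh11 and Heyl were under 1 TPM in all 8 libraries, as were Cspg4 and Rgs5. Higd1b was listed at 0 in all 4 WT libraries. Pdgfrb per 1000 TPM of Acta2 ranged from 21.8 to 22.3 in WT and from 21.3 to 23.0 in KO. Pdgfrb thus differed between the groups in nearly the same proportion as Acta2, whose profile was among those most like that of Pdgfrb. The tested genes of the list did not all share this proportion. Their log2 fold changes ran from -0.39 (Des) to 0.61 (Mcam), with 0.17 for the abundant Tagln, beside 0.43 for Pdgfrb.

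Among all tested genes, 4.4% were called higher and 1.21% lower. Fibroblast and stromal markers gave 5 rises, 0 falls and 8 that did not pass among 13 tested (15 listed), with a median of 0.20. The examples were the surface protein Thy1 (1.06), the matrix protein Postn (0.46) and the collagens Col1a1 (0.29) and Col3a1 (0.34). Dcn, the proteoglycan decorin (log2 fold change -0.43, limma adjusted p = 0.277), and the transcription factor Twist1 (-0.07, adjusted p = 0.577), both named after their values were seen, had negative values and did not pass. The count of 5 fell to 3 without WT replicate 4 or KO replicate 2 and to 2 without KO replicate 4. Their summed TPM was 3811 to 4198 in WT and 4577 to 4863 in KO. Most of it came from Col1a1 (mean 1534 TPM in WT and 1873 in KO) and Col1a2 (1554 and 1785), so ratios to it largely follow these collagens. Of the 15, 0 were at 0 in all libraries, and Lum and Lepr were under 1 TPM in all 8. Per 1000 TPM of this sum, Pdgfrb was 6.86 ± 0.316 in WT and 7.84 ± 0.0977 in KO with no overlap, whereas Pdgfra was 2.82 ± 0.205 and 2.47 ± 0.153, lower in KO with no overlap. Pdgfd per 1000 TPM of the sum was 2.62 ± 0.13 and 3.02 ± 0.308, with overlap.

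Endothelial and macrophage markers bear on Pdgfb, which both cell types can make. Their counts stand beside 4.4% of all tested genes called higher and 1.21% called lower. Of 9 tested endothelial markers (10 listed), 4 rose, 0 fell and 5 did not pass, with a median of 0.45. The adhesion molecule Pecam1 (0.59), the vesicle protein Plvap (0.60), the sialomucin Emcn (0.61) and the transcription factor Erg (0.51) were those that rose. Vwf, von Willebrand factor, named after its values were seen, had a log2 fold change of -0.30 and did not pass (10.7 ± 2.06 TPM in WT, 8.4975 ± 1.24 in KO; limma adjusted p = 0.239). The count of 4 fell to 1 without WT replicate 4 or any 1 of KO replicates 2, 3 and 4, with the Erg call lost in 7 and the Emcn call in 6 of the 8 fits that leave out 1 library. Their summed TPM was 48.64 to 64.9 in WT and 65.57 to 79.87 in KO, with the receptor Tek under 1 TPM in all libraries and 0 of 10 at 0. Of 10 macrophage markers, the integrin Itgam (0.44) and Cd68 (0.29) rose, Lyz2 fell (-1.05) and 7 did not pass. The rises fell from 2 to 1 without WT replicate 3 and to 0 without WT replicate 2, WT replicate 4 or any 1 KO library, and were 5 without WT replicate 1. The summed TPM of the 10 markers was lower in KO, at 5872 to 6833 in WT and 4392 to 4733 in KO. Lyz2 made up most of the WT sum, and without it the order turned, with 2081 to 2523 TPM in WT and 2583 to 2687 in KO. Most of that remainder came from Cd68 (mean 1472 TPM in WT and 1791 in KO). Pdgfb per 1000 TPM of the endothelial sum was 228 to 268.8 in WT and 269.4 to 344 in KO, so these ranges nearly touched. Per 1000 TPM of the macrophage sum without Lyz2, Pdgfb was 5.75 to 6.71 and 8.15 to 8.76, with a wider gap. Of 4 tested megakaryocyte and platelet markers (10 listed), 0 were called. Pf4, a platelet chemokine that macrophages also make, averaged 1822 ± 315 TPM for WT and 1279 ± 185 for KO (log2 fold change -0.51, limma adjusted p = 0.0824) and passed without WT replicate 3 (0.0378) and with TPM over protein-coding genes (0.0237). Treml1 was at 3.51 ± 0.324 and 3.98 ± 0.536 (adjusted p = 0.447), and the lineage factor Gata1 was under 1 TPM in all libraries. The part of any of these cell types in the rises of Pdgfb, Pdgfrb and Pdgfd was not tested. Without WT replicates 3 and 4, the called numbers were 2 higher for the mural list, 3 for the stromal, 1 for the endothelial and 0 higher with 1 lower for the macrophage list, and for the PDGF genes 2 of 7.

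Of 28 genes of PDGF receptor signalling, 2 rose, 0 fell and 26 did not pass, beside 4.4% of all tested genes called higher and 1.21% lower. The median log2 fold change was 0.05 against 0.03 over all genes. With median-of-ratios scaling 1 was higher and 2 were lower, and with TPM over protein-coding genes 2 and 2. Ptprj, a phosphatase that acts on receptor tyrosine kinases, averaged 8.57 ± 0.416 TPM for WT and 10.5 ± 0.487 for KO (log2 fold change 0.27, limma adjusted p = 0.0367). The adaptor Crk was at 55.2 ± 1.80 and 62.7 ± 1.77 TPM (0.18, adjusted p = 0.0409). The Ptprj call was lost without any 1 library (adjusted p up to 0.105) and that of Crk without any 1 of 7 (up to 0.114), and 0 genes of the list were called without WT replicates 3 and 4. Of 8 tested genes of ligand processing (11 listed), which hold the proteases that cleave A and B chains inside the cell and C and D chains outside it, 0 passed, although 1 was called higher with TPM over protein-coding genes. Plau, a protease that can activate the D chain, averaged 293 ± 44.1 TPM (WT) and 315 ± 30.9 TPM (KO; adjusted p = 0.656).

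Related growth factor genes were also counted, beside 5.61% of all tested genes called in either direction. Of 7 tested VEGF family ligands and receptors (10 listed), 0 passed, with a median of 0.11, although 1 was called higher without WT replicate 1. Vegfa, the main angiogenic ligand, averaged 221 ± 18.1 TPM for WT and 205 ± 8.99 for KO (limma adjusted p = 0.388), and its coreceptor Nrp1, which also binds PDGFs, at 85.7 ± 7.32 and 91.6 ± 4.46 (adjusted p = 0.441). Of 5 tested class III receptor tyrosine kinases and their ligands (7 listed), the family to which the PDGF receptors belong, 0 passed, with a median of -0.11. Csf1, the ligand of Csf1r, was at 211 ± 12.4 TPM and 191 ± 4.62 (adjusted p = 0.125).

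Of 14 tested genes known to be induced early by PDGF in fibroblasts (15 listed), 1 rose, 5 fell and 8 did not pass, beside 4.4% of all tested genes called higher and 1.21% lower. Their median log2 fold change was -0.04 and their mean -0.10. Ccl2, a monocyte chemokine, was the 1 that rose (from 19.5 ± 2.13 to 30.9 ± 2.09 TPM, log2 fold change 0.64, limma adjusted p = 0.00624). Cxcl1, a neutrophil chemokine (-0.92), the transcription factor Egr1 (-0.53) and Odc1, the first enzyme of polyamine synthesis (from 260 ± 17.8 to 209 ± 7.33 TPM, -0.31), fell, as did Fosl1 and Ier2. Many stimuli induce these genes. Cxcl1 passed the filter through WT libraries alone, so each fit that left out a WT library did not test Cxcl1 and held 13 genes of the list. The 5 falls became 0 without KO replicate 1 and 1 without WT replicate 4 or KO replicate 3. They became 2 without WT replicate 2, KO replicate 2, KO replicate 4 or WT replicates 3 and 4 together. With the replicate number as a block they also became 2. Without WT replicate 3 or without a filter they became 3.

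**Figure D4:**
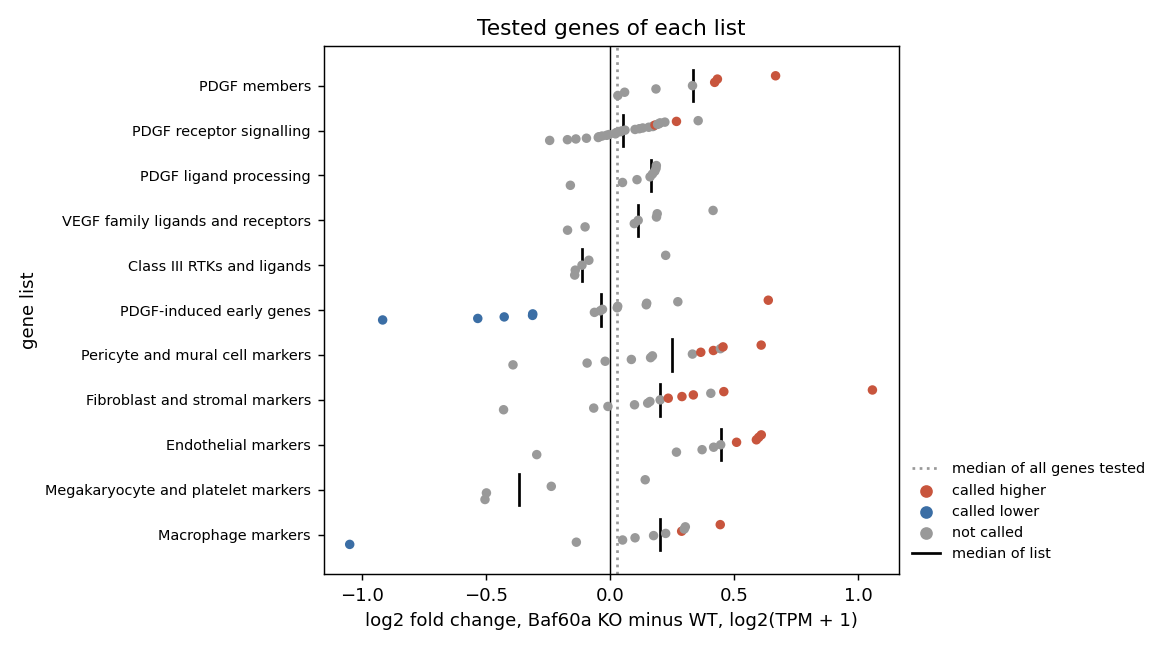
Log2 fold change (Baf60a KO minus WT, log2(TPM + 1)) of every tested gene in the PDGF list and 10 other lists, coloured by call, with a black line at each list's median. Medians run from -0.37 (megakaryocyte and platelet markers) to 0.45 (endothelial markers), with the PDGF genes at 0.33 and all genes tested at 0.03 (dotted line).

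The profiles most like each gene over the 8 libraries were found by the mean absolute difference of centred log2(TPM + 1) values among 11551 candidate genes. For Pdgfrb these were Apln, the peptide ligand apelin (difference 0.02), Acta2 (0.03) and Bmp1, a procollagen protease (0.03), against a median difference of 0.20 over candidates. For Pdgfb they were the complement gene C1qa, the LIM protein gene Crip1 and the adhesion receptor gene Adgrd1 (0.06 each, median 0.32). For Pdgfd they were Pdgfrb (0.04), the crosslinking enzyme gene Loxl1 and the kinase gene Dmpk (0.05 each, median 0.21). Adgrd1 averaged 0.5625 TPM in WT and 1.3475 in KO, so that it passed the filter through the KO libraries. All of these genes were called higher in KO, which the rule favours since it matches the whole profile. The genes nearest to Pdgfra (Mcat, Kti12, Zfp30), Pdgfa (Gnl1, Tcf4, Tulp3), Pdgfc (Col4a5, Tmem185a, Zbtb22) and Pdgfrl (Slc9a3r2, Kcnj8, Ebf3) were not called. These likenesses are a description over 8 libraries that share 2 groups.

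**Figure D5:**
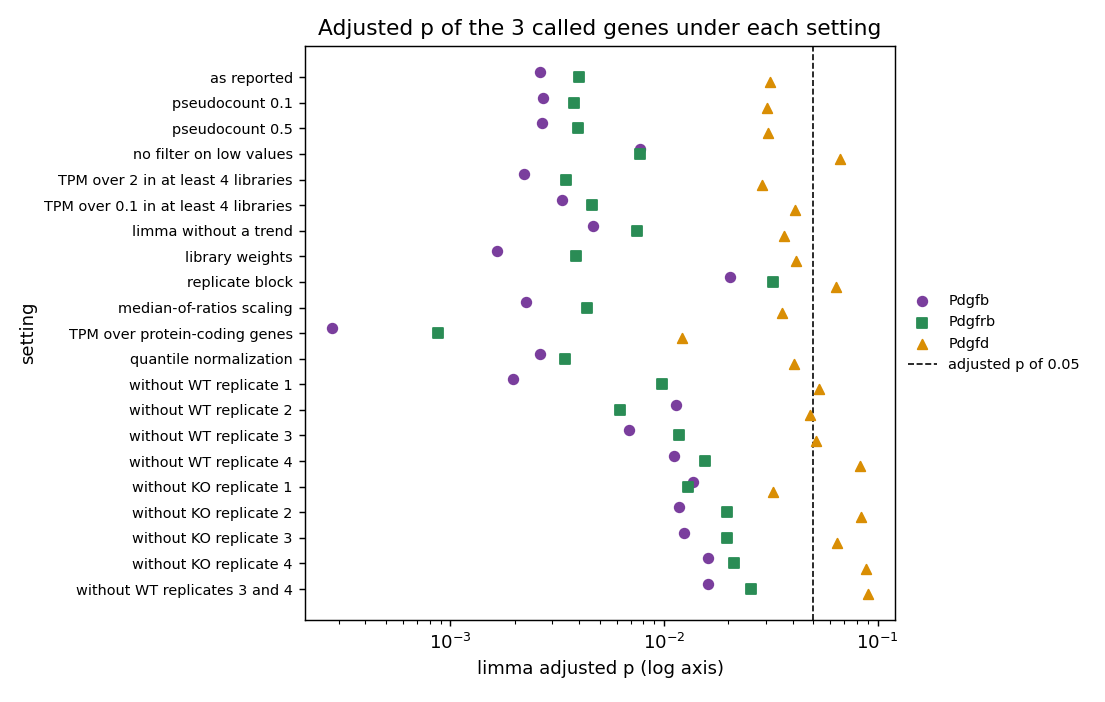
Limma adjusted p (log axis) of Pdgfb, Pdgfrb and Pdgfd as reported and under 20 other settings, with a dashed line at 0.05. Pdgfb (0.00028 to 0.0204) and Pdgfrb (0.00088 to 0.0324) stay under the line in all of them, and Pdgfd (0.0121 to 0.0902) crosses it in 9.

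The calls of Pdgfb and Pdgfrb held in all 20 other settings. Leaving out single libraries moved the log2 fold change of Pdgfb between 0.62 and 0.72, that of Pdgfrb between 0.41 and 0.46 and that of Pdgfd between 0.35 and 0.49. Without WT replicates 3 and 4, Pdgfb had an adjusted p of 0.0160 and Pdgfrb of 0.0256 by limma.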

How the data were processed

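RNA of 4 WT and 4 Baf60a KO libraries of bone marrow derived macrophages was sequenced as paired reads of 51 bp, per the labels' protocols. The tools named in the submitters' processing notes are Salmon 1.2.0 and bcl2fastq, with build mm10. No source used here states the annotation or how transcripts were summed to genes. The deposited values are TPM made by the authors; the header names no unit, and it was read from column sums of 1000000 within rounding. Read depth cannot be had from TPM, and no counting interval is printed. No columns were identical.

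Of 55421 identifiers, 55240 matched GENCODE M21. The filter kept genes exceeding 1 TPM in 4 or more of the libraries, and these were tested as log2(TPM + 1) with limma 3.58.1 in R 4.3.3 (mean-variance trend, group only, Benjamini-Hochberg), a step tested on simulated data. Cspg4 and Rgs5, which were under the filter, had an exact permutation test (scipy 1.17.1). Genes of the lists under the filter were not tested. The 9 genes and the 10 lists were chosen with earlier results of these data known. Named genes were the 9, Smarcd1, up to 4 called members per list by adjusted p (or the most abundant where fewer than 2 were called), and the 3 nearest profiles of each tested gene with mean TPM over 2. The alternatives were the pseudocount, filter, variance model, library weights, scaling, the replicate block and left-out libraries.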

Additional observations from a re-analysis of the deposited data

Results flagged for a closer look

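For Pdgfrl, WT replicate 2 (1.98 TPM) lay far below the other WT libraries (2.37 to 2.39 TPM), with a gap of 0.951 of the group's range, past Dixon's critical value at 95%. This was 1 of 24 groups of 4 libraries checked, and chance marks about 1 in 20.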

How the results depend on the processing

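Pdgfb, Pdgfrb and Smarcd1 kept their direction and call in all 20 alternatives, and the number of PDGF genes called was 2 or 3 in each. The number of all genes called (782) was 364 without a filter on low values, 1326 with TPM over protein-coding genes, 372 without WT replicates 3 and 4, and 156 to 679 with single libraries left out. The number of called genes over the 10 lists (24) was 12 without a filter, 10 without WT replicates 3 and 4, and 9 to 24 with single libraries left out. Pdgfa, which was not called, turned to -0.0056 with median-of-ratios scaling and -0.0188 without WT replicates 3 and 4, and Plau to -0.0368 without those libraries; the cause was not tested. With the replicate number as a block, 209 genes were called in all, 10 over the lists and 2 of the PDGF genes. In that blocked fit Pdgfd had an adjusted p of 0.0639 and Pf4 passed (0.0204), while 0 endothelial markers were called. Deviations of same-numbered libraries from their group means had correlations across genes of -0.11, 0.01, 0.01 and -0.02 for numbers 1 to 4. Such values over all genes cannot show whether same-numbered libraries share a mouse, a culture or a day. No scaling moved the median of all genes by over 0.1 on the log2 scale. Read depth is unknown, so what depth limits for Cspg4 and Rgs5 cannot be stated.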
